A study of Mus musculus with 24 samples.

Results

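The gene-densest bins of the mouse autosomes were examined in chromatin of irradiated embryonic fibroblasts. A bin is a stretch of 100 kb for which the authors counted reads, and it was taken as gene-dense when it held the midpoints of 5 or more RefSeq protein-coding genes, with bins of olfactory receptor (Olfr), vomeronasal receptor (Vmn) and keratin (Krt) genes left out. Of 24639 autosomal bins, 666 held 5 or more midpoints and 126 of these belonged to the 3 omitted families, which left 540 gene-dense bins, or 2.19% of the autosomal bins. They held 3401 of 20556 autosomal protein-coding genes (16.5%). Chromatin immunoprecipitation followed by sequencing (ChIP-seq) was done with an antibody to the phosphorylated histone gH2AX, with an antibody to H2AX, and on input DNA that was not precipitated. The cells were primary mouse embryonic fibroblasts (MEF) of strain C57BL6 with the genotype SIRT7-KO or WT, female or male, and every group, WT included, had been given 5 Gy of X-rays and 30 minutes of recovery. KO females, WT females, KO males and WT males each had 2 gH2AX, 2 H2AX and 2 input libraries, 24 in all. The labels do not give the KO allele or the embryos and cultures behind each library, so p-values measure the spread between these libraries, which may be technical. No unirradiated sample was analysed here, and levels present before X-rays cannot be told apart from those that followed.

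H2AX is a variant of the core histone H2A that is built into nucleosomes throughout the genome. After a DNA double-strand break, the kinases ATM, ATR and DNA-PK phosphorylate it near its carboxyl end over long stretches of chromatin around the break, and the phosphorylated form, gH2AX, recruits repair factors through the mediator Mdc1. SIRT7 is a nuclear sirtuin, an enzyme that uses NAD to remove acyl groups from histones and other proteins. Read counts over 100 kb describe chromatin and not transcription, so the labelled cell type could not be checked against marker genes. The share of reads on chromosome Y was 0.0868% to 0.100% in female libraries and 1.54% to 1.62% in male libraries, as the sex labels say. Libraries held 66.9 M to 269 M reads (M, 1e6), and the median biological coefficient of variation, the replicate spread that edgeR estimated, was 2.02%. The labels name no batch.

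To show the kind of promoter that stood in bins with high and with low signal, 4 RefSeq promoters (GRCm38.p6) are printed below, each the 250 bases before the annotated start, 5′ to 3′ on the gene's strand, with every CG dinucleotide in capitals. Gna15 (chr10:81524226-81524475, minus strand) and Irf2bp1 (chr7:19003808-19004057, plus strand) are the first genes with an entry in the 2 bins with the highest gH2AX ratio to input. Tas2r123 (chr6:132846892-132847141, plus strand) and Ppbp (chr5:90768268-90768517, plus strand) lie in bins where both marks were lower than input.
Gna15: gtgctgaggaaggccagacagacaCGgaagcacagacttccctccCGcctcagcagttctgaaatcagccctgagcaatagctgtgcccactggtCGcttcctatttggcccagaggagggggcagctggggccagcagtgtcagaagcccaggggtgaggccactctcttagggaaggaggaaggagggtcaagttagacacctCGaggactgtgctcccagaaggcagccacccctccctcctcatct
Irf2bp1: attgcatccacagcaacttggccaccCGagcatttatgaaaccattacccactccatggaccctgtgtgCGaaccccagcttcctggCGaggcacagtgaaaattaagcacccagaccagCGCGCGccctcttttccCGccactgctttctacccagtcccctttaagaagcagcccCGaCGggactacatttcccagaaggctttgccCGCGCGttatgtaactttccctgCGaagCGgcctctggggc
Tas2r123: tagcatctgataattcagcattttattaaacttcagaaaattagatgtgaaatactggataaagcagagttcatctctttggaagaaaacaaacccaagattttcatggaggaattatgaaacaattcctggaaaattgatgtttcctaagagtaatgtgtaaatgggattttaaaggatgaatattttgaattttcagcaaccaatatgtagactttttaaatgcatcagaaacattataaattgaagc
Ppbp: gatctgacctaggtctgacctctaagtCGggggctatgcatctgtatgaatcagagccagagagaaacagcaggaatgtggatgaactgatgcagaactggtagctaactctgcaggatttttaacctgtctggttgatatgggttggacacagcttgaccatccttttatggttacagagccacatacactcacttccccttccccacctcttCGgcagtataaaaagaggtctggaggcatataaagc
The printed stretch held 4 CG in Gna15, 14 in Irf2bp1, 0 in Tas2r123 and 2 in Ppbp, and TATAAA occurred in the 300-base windows of Tas2r123 and Ppbp.

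RefSeq windows of 300 bases (250 before and 50 after the start) were matched for 2696 of 3322 genes in gene-dense bins, one chromosome (18) being left out of the search. The median number of CG per window was 16 in bins with both marks higher than input (2476 windows), 2 in bins with both marks lower (71 windows) and 14 over all 17273 windows matched. TATAAA on either strand was found in 8.40% of the windows of bins with both marks higher, in 43.7% of those with both marks lower and in 13.4% of all windows. GGGCGG or its complement CCGCCC was found in 55.2%, 5.63% and 46.9% of these same sets, in that order. These matches describe letters in a window and say nothing of factor binding.

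Both marks were enriched over input in gene-dense bins. They received 2.53% ± 0.0959 of the autosomal reads of gH2AX libraries and 1.97% ± 0.0141 of those of input libraries (SD, n = 8 each), a difference of 0.561 percentage points. H2AX libraries placed 2.56% ± 0.0158 of their autosomal reads there (SD, n = 8), 0.597 points above input. Every library of either antibody lay above every input library. Both differences gave p = 0.00154 in an exact two-sided permutation test within sex and genotype groups, the smallest value that its 1296 relabellings can give. gH2AX was 0.0359 points below H2AX by the means, with overlapping libraries (difference -0.0359, exact permutation p = 0.231).

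**Figure D1:**
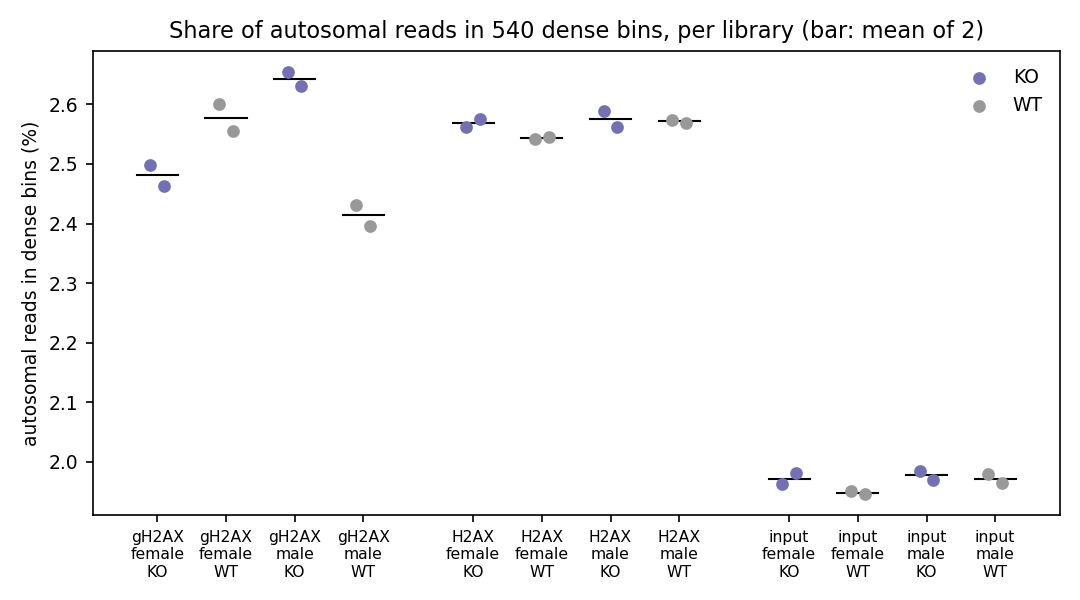
Share of autosomal reads (percent, y axis) in the 540 gene-dense bins for each of the 24 libraries, by antibody, sex and genotype, with a bar at the mean of 2 libraries. The gH2AX libraries lie between 2.40% and 2.65%, the H2AX libraries between 2.54% and 2.59% and the input libraries between 1.95% and 1.98%.

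The enrichment held bin by bin. The log2 ratio of gH2AX to input was significantly above 0 in 503 of the 540 gene-dense bins (93.1%; edgeR's quasi-likelihood test with Benjamini-Hochberg adjustment over all bins, adjusted p under 0.05), against 41.5% of all 25703 bins tested. It was below 0 in 28 gene-dense bins, against 45.2% of all bins. H2AX over input was higher in 504 gene-dense bins, against 44.9% of all bins, and lower in 21, against 44.5%. The median log2 ratio in gene-dense bins was 0.39 for gH2AX (range -0.27 to 0.74) and 0.40 for H2AX (-0.37 to 0.77), and over all bins tested it was -0.01 for gH2AX and 0.00 for H2AX. All 540 bins passed the filter on low counts, and their median input level, 36.1 reads per 1e6 reads of the scaled library (rpm), was close to the 37.0 rpm of the other autosomal bins.

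The ratios followed gene number within the gene-dense bins and below their limit. The median gH2AX ratio was -0.09 in bins without a gene midpoint, 0.08 with 1, 0.17 with 2, 0.25 with 3 and 0.30 with 4, just outside the limit. Just inside it, the 242 bins with 5 midpoints had a median of 0.35, the 197 bins with 6 or 7 had 0.39 and the 101 bins with 8 or more had 0.45. For H2AX the medians of these same 8 classes were -0.11, 0.10, 0.19, 0.26, 0.33, 0.35, 0.41 and 0.45. The 126 omitted Olfr, Vmn and Krt bins, although as rich in genes, had a median gH2AX ratio of -0.18, with 25 higher and 91 lower than input.

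The level of enrichment was seen in all 4 groups of cells. The median gH2AX ratio to input over gene-dense bins was 0.36 in KO females, 0.42 in WT females, 0.44 in KO males and 0.31 in WT males. For H2AX it was 0.40 in KO females, 0.40 in WT females, 0.40 in KO males and 0.41 in WT males. gH2AX lay above input in every one of the 4 groups in 498 of the 540 bins, and H2AX did so in 503. This count was not made over other bins. In single groups, gH2AX lay above input in 11158 to 11398 of the 23493 other autosomal bins, and H2AX in 11763 to 11904.

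The bin with the highest gH2AX ratio, chr10:81500001-81600000, holds Gna15 and Gna11, alpha subunits of heterotrimeric G proteins, and Tle5, Tle2 and Tle6 of the Groucho corepressor family. Its 8 gH2AX libraries had 52.6, 58.3 and 64.3 rpm (lowest, median, highest), its 8 H2AX libraries 50.2, 52.5 and 53.7 rpm, and its 8 input libraries 33.7, 35.0 and 35.5 rpm. No library of either antibody overlapped the input libraries there, and the log2 ratio to input was 0.74 ± 0.017 (SE) for gH2AX and 0.58 ± 0.017 for H2AX. The next was chr7:19000001-19100000, with a gH2AX ratio of 0.72. It holds the corepressor gene Irf2bp1, the liver transcription factor gene Foxa3, Sympk, a scaffold of mRNA 3′ end processing, and the kinase gene Dmpk. Then came chr5:112300001-112400000 (Tfip11, Srrd, Hps4, Asphd2; 0.70) and chr7:24500001-24600000, which holds Xrcc1, the scaffold of single-strand break repair (0.70), followed by chr5:24400001-24500000 with the kinase gene Cdk5 (0.68).

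H2AX was highest in chr8:122400001-122500000, which holds the cytokine gene Il17c, the NADPH oxidase subunit gene Cyba and Mvd of the mevalonate pathway (0.77 ± 0.017). It was followed by the Tfip11 bin (0.76), by chr10:127500001-127600000 with the mitochondrial enzyme gene Shmt2 and the receptor gene Lrp1 (0.74), by a bin of predicted genes at chr8:55300001-55400000 (0.74) and by chr17:56100001-56200000 with the lipid droplet genes Plin4 and Plin5 (0.74). The longest run of adjacent gene-dense bins, 11 bins and 78 genes at chr7:44800001-45900000, had median log2 ratios of 0.49 for gH2AX and 0.49 for H2AX. A run of 8 bins and 54 genes at chr10:79600001-80400000 had medians of 0.58 and 0.60 for the same marks.

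The 3 bins with the most genes did not all have high ratios. The bin with the most midpoints, 17, is that of the gamma protocadherins, clustered cell adhesion genes of neurons, at chr18:37700001-37800000. Its gH2AX ratio was 0.15 and its H2AX ratio 0.32, both below the medians of gene-dense bins. Of the 2 bins with 15 midpoints, chr2:25200001-25300000, which holds the elongation factor subunit gene Nelfb, the tubulin gene Tubb4b and Anapc2 of the anaphase-promoting complex, had 0.60 for gH2AX and 0.63 for H2AX. The other, chr19:6900001-7000000, with the peroxiredoxin gene Prdx5, the nuclear receptor gene Esrra and Bad, a promoter of apoptosis, had 0.55 for gH2AX and 0.51 for H2AX.

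Bins of housekeeping genes shared the enrichment. gH2AX was higher than input in 25 of 25 gene-dense bins with a ribosomal protein gene (median 0.41), 23 of 23 with a mitochondrial ribosomal protein gene (0.41), 12 of 12 with a proteasome gene (0.35), 8 of 8 with a tRNA synthetase gene (0.40) and 7 of 7 with an RNA polymerase subunit gene (0.51). It was also higher in 28 of 28 bins with a zinc finger gene named Zfp (0.37) and in 8 of 8 with a major histocompatibility gene (0.29). These shares stand beside 93.1% of all gene-dense bins. Examples are the Rps15 bin, chr10:80200001-80300000 (0.56), and the Mrpl54 bin, chr10:81200001-81300000 (0.62).

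All 6 gene-dense bins with a gene of the break response had both marks above input, with those of Kat5, H2ax and Mdc1 among them, and 492 of all 540 gene-dense bins (91.1%) were likewise higher for both marks. The bin of the acetyltransferase gene Kat5, chr19:5600001-5700000, had 0.48 for gH2AX and 0.66 for H2AX. The bin of H2ax itself, chr9:44300001-44400000, had 45.4, 47.2 and 49.9 rpm in gH2AX libraries (lowest, median, highest), 45.9, 47.4 and 49.6 rpm in H2AX libraries and 35.2, 36.0 and 36.7 rpm in input libraries, with ratios of 0.41 for gH2AX and 0.40 for H2AX. The 3 bins of sirtuin genes, those of Sirt2, Sirt3 and Sirt7, were also above input for both marks, as was the bin of the p53 target Bax, chr7:45400001-45500000 (gH2AX 0.50, H2AX 0.47). The 4 Hox cluster bins, which hold transcription factor genes of body patterning, were near 0, with a median of 0.04 for gH2AX and 0.05 for H2AX. Hoxa (0.08) and Hoxb (0.07) were slightly higher than input for gH2AX, and the Hoxd bin, chr2:74600001-74700000, was lower for gH2AX (-0.04) and for H2AX (-0.05).

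The enrichment was present on all 19 autosomes. Gene-dense bins were most numerous on chromosomes 7 (84), 11 (56), 17 (51) and 2 (40), and fewest on chromosomes 12 (8) and 18 (9). Their median gH2AX ratio was above 0, and above that of the other bins of the same chromosome, on 19 of 19 chromosomes. It was highest on chromosome 10 (0.46) and lowest on chromosome 18 (0.13), and the H2AX medians had the same extremes (0.52 on chromosome 10 and 0.11 on chromosome 18). On every chromosome, each of the 8 gH2AX libraries placed a larger share of the chromosome's reads in gene-dense bins than did any of the 8 input libraries, and the same held for the 8 H2AX libraries. On chromosome 7 the share was 7.00% to 7.64% in gH2AX libraries and 5.83% to 5.89% in input libraries. On chromosome 18 it was 1.04% to 1.07% in gH2AX libraries and 1.00% to 1.02% in input libraries. No test across the bins of a chromosome was made.

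**Figure D2:**
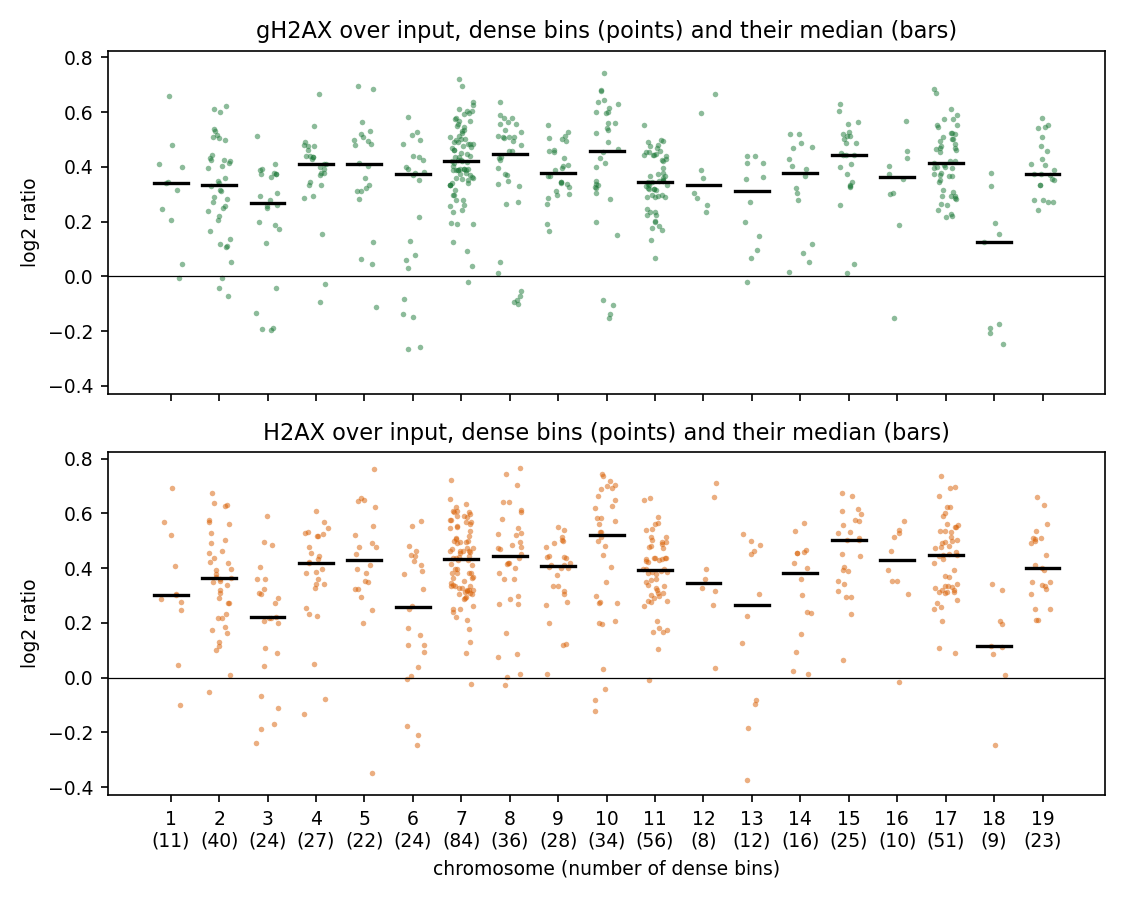
Log2 ratio to input (y axis) of each gene-dense bin (points) for gH2AX (upper panel) and H2AX (lower panel), by chromosome with the number of gene-dense bins in parentheses. Bars are medians, which are above 0 on all 19 chromosomes and lowest on chromosome 18 (0.13 for gH2AX and 0.11 for H2AX).

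A minority of gene-dense bins had a mark lower than input. gH2AX was lower than input in 28 of 540 bins, against 45.2% of all bins tested, and H2AX in 21, against 44.5%. Both marks were lower in 15 gene-dense bins, against 37% of all bins tested. Shares over all bins for either mark, or for 1 mark only, were not counted. In all, 34 gene-dense bins were lower for either mark, 13 of them for gH2AX only and 6 for H2AX only. They lay on 11 chromosomes: 5 each on chromosomes 3, 6 and 8, 4 each on 10, 13 and 18, 2 each on 2 and 4, and 1 each on 1, 5 and 16. Chromosomes 7, 9, 11, 12, 14, 15, 17 and 19, with the largest set among them, had none. Of the 15 bins lower for both marks, 13 lay below input for both marks in each of the 4 sex and genotype groups. The 15 were chosen by the mean of these same groups, so the agreement is partly set by the choice. The median input level of the 15 was 37.7 rpm, near that of the other gene-dense bins.

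Many of these bins held genes of a single family. In 29 of the 34, at least 50% of the gene symbols began with the same family name, against 71 of all 540 gene-dense bins. Of the 71 one-family bins, 35 were higher than input for both marks and 29 were lower for either. They had a median ratio of 0.11 for gH2AX and 0.11 for H2AX, while the other 469 had 0.40 and 0.42 and included 5 bins lower for either mark. The count of one-family bins was made after the low bins had been seen. A list of tandem gene families of other tissues took in 75 gene-dense bins. They had a median of 0.20 for gH2AX and 0.27 for H2AX, with 51 higher and 19 lower for gH2AX, and 20 of them were lower for either mark. This list goes by the beginning of symbols and also caught single genes such as Rnaseh2c and Cyp27b1.

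The lowest gH2AX ratios were those of the bitter taste receptor genes (Tas2r), which act in taste cells. The bin of Tas2r117, Tas2r123, Tas2r116, Tas2r110 and Tas2r113, chr6:132800001-132900000, had 28.8, 32.2 and 34.4 rpm in gH2AX libraries (lowest, median, highest), 30.7, 32.4 and 35.5 rpm in H2AX libraries and 37.0, 38.1 and 40.2 rpm in input libraries. All 8 libraries of each antibody lay below all 8 input libraries, and the log2 ratio was -0.27 ± 0.019 for gH2AX and -0.24 ± 0.019 for H2AX. The promoter of Tas2r123, printed above without a CG, belongs to this bin. The bin before it, chr6:132700001-132800000, had -0.26 for gH2AX and -0.18 for H2AX, and another Tas2r bin, chr6:131600001-131700000, had -0.15 for gH2AX, with H2AX at 0.01 and not called. Close to these values was the Spink bin of serine protease inhibitor genes, chr18:44100001-44200000, with -0.25 for both marks.

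Genes of the cornified layer of the skin made up 5 of the 15 bins lower for both marks. On chromosome 3, bins of the small proline-rich (Sprr) and late cornified envelope (Lce) genes between 92300001 and 93000000 were the ones concerned. chr3:92300001-92400000 (Sprr2b to Sprr2h) had -0.19 for gH2AX and -0.19 for H2AX, chr3:92600001-92700000 (Lce6a to Lce1d) had -0.20 for gH2AX and -0.17 for H2AX, and chr3:92400001-92500000 (Sprr2i to Sprr1a) had -0.13 for gH2AX and -0.24 for H2AX. Trace amine receptor genes (Taar) on chromosome 10 gave bins at -0.10 and -0.09 for gH2AX, and the type I interferon bin chr4:88600001-88700000 had -0.09. The chemokine bin chr5:90700001-90800000 (Cxcl5, Ppbp, Pf4, Cxcl3, Cxcl15), whose Ppbp promoter is printed above, had 35.4, 38.4 and 40.2 rpm in gH2AX libraries, 29.6, 32.2 and 33.3 rpm in H2AX libraries and 39.8, 40.8 and 43.6 rpm in input libraries (lowest, median, highest). The H2AX libraries lay below all others there (-0.35 ± 0.018), and the gH2AX ratio was -0.11 ± 0.018.

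The bins lower for gH2AX only were led by clustered protocadherins. The bin of Pcdha1 to Pcdha11, chr18:37000001-37100000, had -0.21 for gH2AX and 0.01 for H2AX. The beta protocadherin bin chr18:37300001-37400000 (Pcdhb3 to Pcdhb8) had 25.5, 28.3 and 29.8 rpm in gH2AX libraries, 33.2, 34.0 and 35.7 rpm in H2AX libraries and 30.8, 31.8 and 32.4 rpm in input libraries (lowest, median, highest). gH2AX thus lay below input (-0.17 ± 0.020) and H2AX above it (0.11 ± 0.020) with no overlap among the 3 sets. The 5 low bins of chromosome 8, all of defensin genes, were likewise lower for gH2AX only, between -0.10 and -0.05. Members of such families resemble each other in sequence, so reads may be placed among copies or left out by the aligner, and these values are uncertain to that extent.

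**Figure D3:**
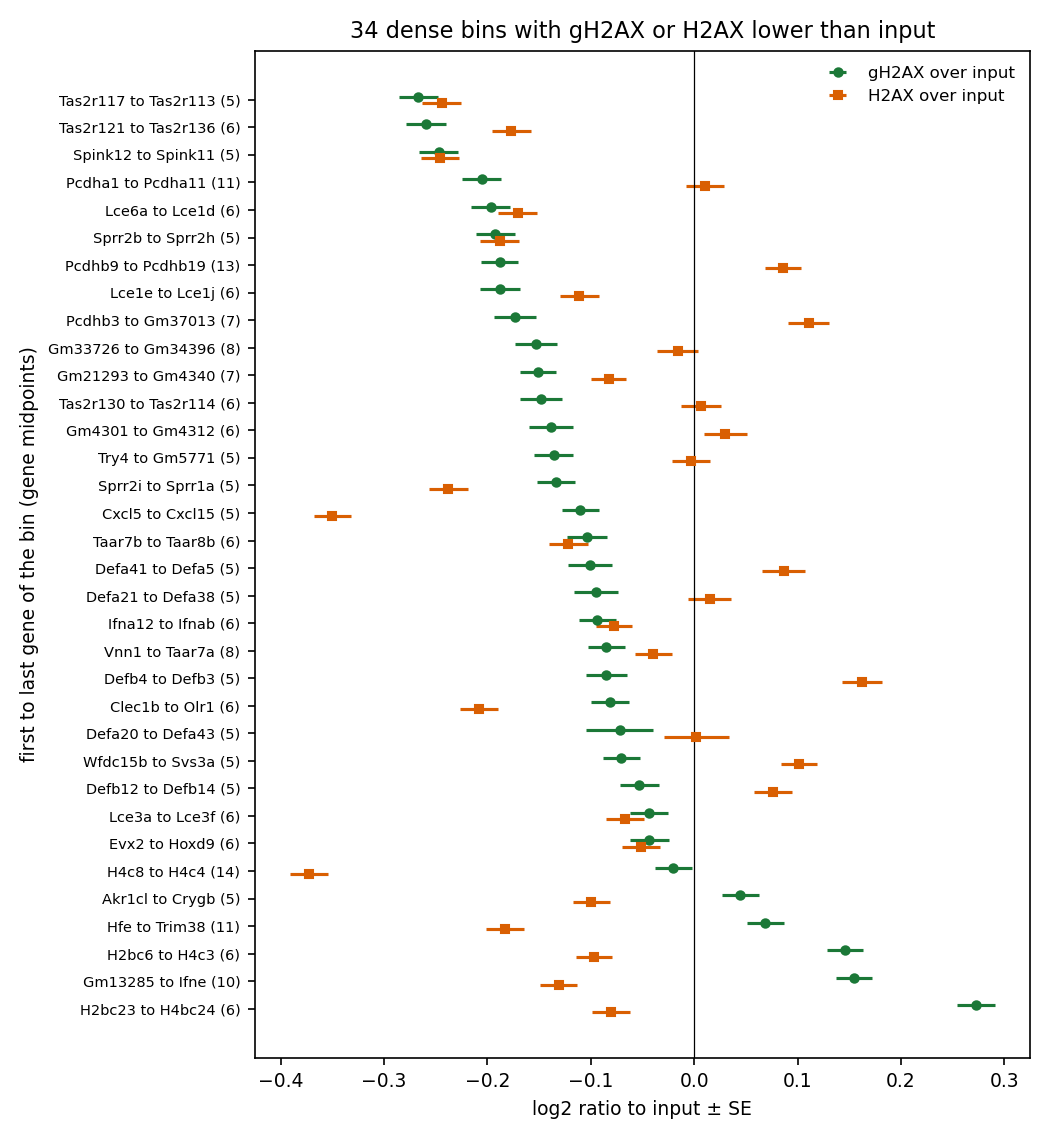
Log2 ratio to input ± SE of gH2AX (circles) and H2AX (squares) in the 34 gene-dense bins where either mark was lower than input, ordered by gH2AX and named by their first and last gene with the number of genes in parentheses. The bitter taste receptor bins of chr6:132700001-132900000 and the Spink, Sprr and Lce bins lie below 0 for both marks. The bitter taste receptor bin chr6:131600001-131700000 is low for gH2AX only, with H2AX at 0.01. The 4 histone bins near the bottom lie below 0 for H2AX.

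Of the 6 gene-dense bins on the list of replication-dependent histone genes, H2AX was lower than input in 4, all on chromosome 13, and higher in 2. The bin of 14 histone genes at chr13:23500001-23600000 (H4c8 to H4c4) had 37.0, 39.3 and 40.2 rpm in gH2AX libraries, 29.4, 30.4 and 31.9 rpm in H2AX libraries and 38.1, 39.9 and 40.5 rpm in input libraries (lowest, median, highest). gH2AX overlapped input (-0.02 ± 0.018, adjusted p = 0.286), and H2AX lay below both (-0.37 ± 0.018), the lowest H2AX ratio of the gene-dense bins. The other chromosome 13 histone bins also had H2AX below input: chr13:23700001-23800000 (-0.18), chr13:23600001-23700000 (-0.10) and chr13:21800001-21900000 (-0.08). gH2AX was above input in these 3, at 0.07, 0.15 and 0.27 in the same order. The histone bin of chromosome 3, chr3:96200001-96300000 (H2ac21 to H2bc18), was higher than input for both marks, at 0.26 for gH2AX and 0.09 for H2AX. The pattern used for the histone list also matched H1f0, whose product is not replication-dependent, in a bin with both marks high.

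gH2AX over H2AX, which compares the antibodies directly, was higher in 153 gene-dense bins, against 38.5% of all bins tested, and lower in 234, against 36.6%. The median was -0.02 (range -0.48 to 0.46). The highest was a bin of predicted genes at chr6:47600001-47700000, with 134.8, 145.4 and 160.0 rpm in gH2AX libraries, 104.3, 106.9 and 108.2 rpm in H2AX libraries and 96.8, 98.0 and 99.8 rpm in input libraries (lowest, median, highest). Its log2 ratio of gH2AX to H2AX was 0.46 ± 0.015, and its input level was the highest of all gene-dense bins. The histone bins chr13:23500001-23600000 and chr13:21800001-21900000 followed with 0.35 each, and then the bin of the interferon gene Ifnz, chr4:88700001-88800000, and that of Ifna7 to Ifna1, chr4:88800001-88900000, with 0.29 each. The lowest ratio was that of predicted genes at chr8:55300001-55400000 (-0.48), followed by chr5:146500001-146600000 (-0.39), the Speer4a bin chr5:26000001-26100000 (-0.34), the kallikrein bin chr7:43900001-44000000 (-0.33) and the beta protocadherin bin chr18:37300001-37400000 (-0.28). The side on which the median fell differed between groups. It was -0.04 in KO females, 0.03 in WT females, 0.04 in KO males and -0.09 in WT males.

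**Figure D4:**
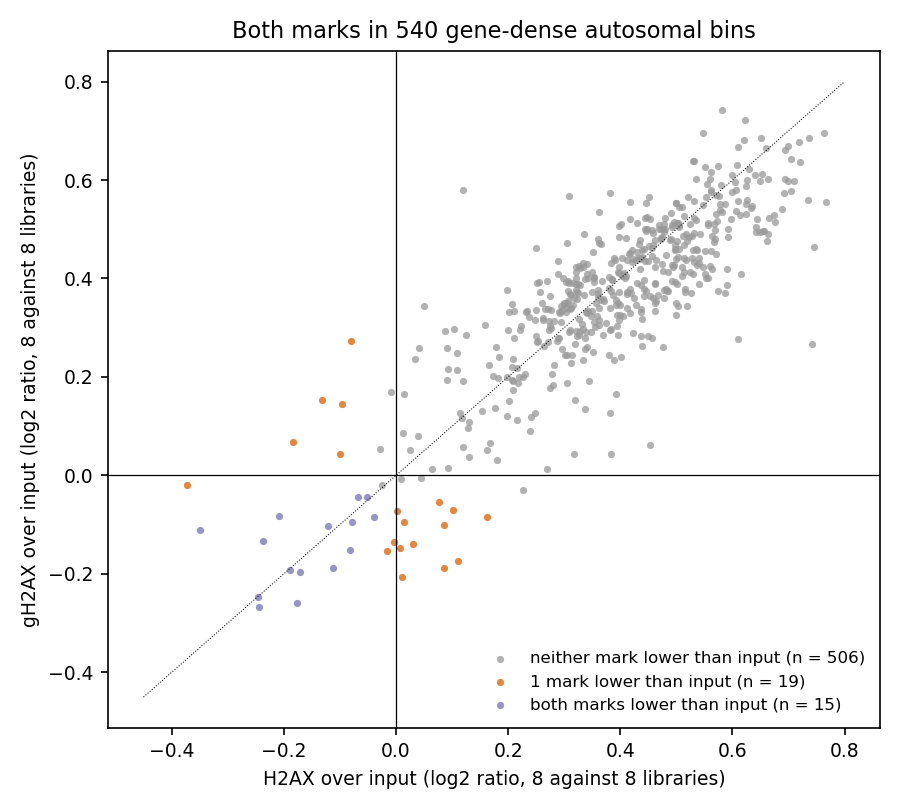
Log2 ratio to input of H2AX (x axis) and gH2AX (y axis) in the 540 gene-dense bins, 8 against 8 libraries, with the dotted line at equal ratios. Most bins lie above 0 for both marks, 15 lie in the lower left with both marks lower than input, and 19 have 1 mark lower.

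The bin of the gene named in the KO label, chr11:120600001-120700000, holds Sirt7 between Pcyt2 and Mafg and is itself gene-dense. It showed no loss of input reads at the scale of 100 kb. Here and in the KO comparisons that follow, rpm were scaled within the 8 libraries of an antibody, and they differ slightly from the rpm above, which were scaled over all 24 libraries. Input was 35.0 and 34.6 rpm in KO females, against 34.5 and 35.0 rpm in WT females, and 37.8 and 34.8 rpm in KO males, against 36.6 and 35.6 rpm in WT males. The counts of this bin therefore do not check the genotype labels. The bin before it, chr11:120500001-120600000, holds the glucagon receptor gene Gcgr, P4hb, which encodes protein disulfide isomerase, Arhgdia and the mRNA export gene Alyref. This bin was higher in KO for gH2AX, H2AX and input in both sexes, before any subtraction of input. Its input was 65.0 and 63.3 rpm in KO females, against 37.0 and 37.2 rpm in WT females, and 63.7 and 65.0 rpm in KO males, against 35.7 and 35.1 rpm in WT males. Its gH2AX level was 81.1 and 77.4 rpm in KO females, against 49.2 and 48.5 rpm in WT females, and 80.4 and 80.8 rpm in KO males, against 43.2 and 42.5 rpm in WT males. H2AX was 88.6 and 88.0 rpm in KO females, against 46.9 and 47.6 rpm in WT females, and 88.1 and 87.0 rpm in KO males, against 48.7 and 49.9 rpm in WT males. KO and WT libraries do not overlap in any of the 6 comparisons. On the log2 scale, gH2AX rose by 0.70 in females and by 0.91 in males, and input rose by 0.79 in females and by 0.86 in males. With the change of input subtracted, the gH2AX change in females was -0.09, and the part of the input DNA in the change was not tested further. It is the 1 gene-dense bin called higher in the KO over WT comparisons of H2AX and input in each sex, and of gH2AX in females.

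The comparison of KO with WT within each sex asks whether loss of SIRT7 went with another distribution of gH2AX after irradiation. In males, gH2AX of gene-dense bins was higher in KO: 412 of 540 bins rose (76.3%), against 22.4% of all 25702 bins tested, and 14 fell, against 22.2%. The median change was 0.13 on the log2 scale, against -0.01 over all bins. The 2 KO male libraries placed 2.65% and 2.63% of their autosomal reads in gene-dense bins, and the 2 WT male libraries 2.43% and 2.40%. These sets do not overlap, and with 2 against 2 libraries the smallest p of an exact permutation test is 0.333, which this difference of 0.229 points gave. In 466 of the 540 bins (86.3%) both KO male libraries lay above both WT male libraries, against 35.6% of all bins.

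In females the change was smaller and mostly of the other sign. The 2 KO female libraries placed 2.50% and 2.46% of their autosomal reads in gene-dense bins, and the 2 WT female libraries 2.60% and 2.56% (difference -0.0970 points, exact permutation p = 0.333, the smallest possible). The median change was -0.05, with 472 of 540 bins below 0. By edgeR's quasi-likelihood test, 7 bins fell, against 0.595% of all bins tested, and 1 rose, against 0.416%. In 306 gene-dense bins (56.7%) both KO female libraries lay below both WT female libraries, against 21.3% of all bins.

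How far each gH2AX library was enriched moved with both results. The slope of a library's log2 deviation from the mean of the 8 gH2AX libraries on the bin's gH2AX ratio to input, over all autosomal bins, was -0.06 and -0.12 in KO females, 0.12 and 0.05 in WT females, 0.24 and 0.20 in KO males and -0.19 and -0.24 in WT males. A positive slope means that a library had relatively more reads in bins with a high ratio, gene-dense or not. With this trend removed from each library, 1 gene-dense bin rose and 4 fell in KO males (median change -0.01), and 1 bin was called in KO females, where it rose (median change -0.00). Shares over all bins tested are not given for this setting. These counts alone therefore do not show whether the drop was particular to gene-dense bins. Whether the trend reflects chromatin or the efficiency of the precipitations was not tested. Removing it also removes any change that follows enrichment.

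**Figure D5:**
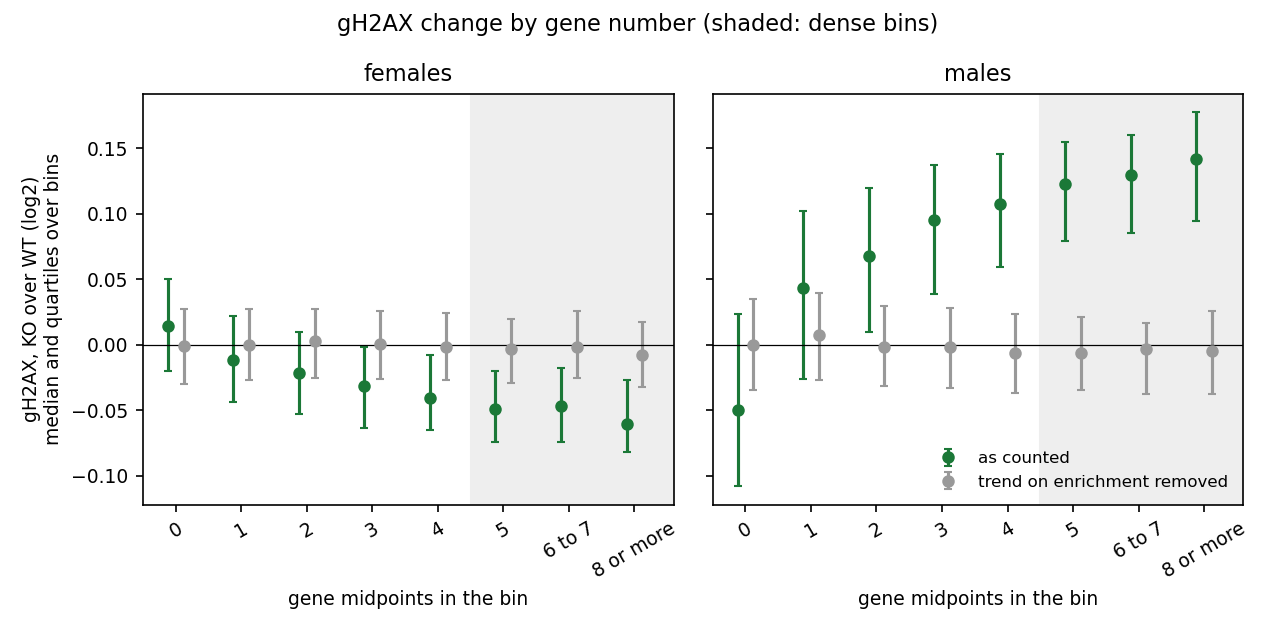
Median and quartiles over bins of the log2 change of gH2AX, KO over WT (y axis), by number of gene midpoints in the bin (x axis; shaded, gene-dense bins), in females (left) and males (right). As counted, the median in bins with 8 or more genes is -0.06 in females and 0.14 in males, and with the trend on enrichment removed all medians lie near 0.

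The change in males grew with gene number. Its median was -0.05 in bins with no gene midpoint, 0.11 in those with 4, 0.12 in those with 5, 0.13 in those with 6 or 7 and 0.14 in those with 8 or more. In females the medians of these same classes were 0.01, -0.04, -0.05, -0.05 and -0.06. By chromosome, the median change in males was above 0 on all 19 chromosomes, from 0.04 on chromosome 18 to 0.16 on chromosome 1, and both KO male libraries had a larger share of the chromosome's reads in gene-dense bins than both WT male libraries on 18 of 19, the exception being chromosome 18. In females the median was below 0 on all 19, from -0.07 on chromosome 8 to -0.01 on chromosome 18, and both KO female libraries had the smaller share on 17, with overlap on chromosomes 13 and 17.

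The largest gain in males outside the bin next to Sirt7, which is described above, was in chr16:10700001-10800000, the bin of Socs1, a suppressor of cytokine signalling, and of the sperm chromatin genes Tnp2, Prm3, Prm2 and Prm1. It had 58.1 and 58.3 gH2AX rpm in KO males, against 49.5 and 47.5 rpm in WT males, a log2 change of 0.26 ± 0.035 (adjusted p = 1.65e-11). In females the same bin had 52.7 and 51.9 rpm in KO, against 55.4 and 53.2 rpm in WT (-0.05 ± 0.035, adjusted p = 0.478). The bin of Fanca, a gene of the Fanconi anaemia core complex, chr8:123200001-123300000, rose by 0.25 in KO males, and the Xrcc1 bin chr7:24500001-24600000 rose by 0.24. The bins that fell most in KO males were those with low ratios to input: the Tas2r bins chr6:132700001-132800000 (-0.21) and chr6:132800001-132900000 (-0.20), the Pcdha bin chr18:37000001-37100000 (-0.21) and the Spink bin chr18:44100001-44200000 (-0.16). The count of 14 bins that fell was 8 without KO male replicate 1 of gH2AX, 8 without KO male replicate 2 and 7 without WT male replicate 2. In the Tas2r117 bin, KO males had 29.9 and 28.7 gH2AX rpm, against 33.7 and 33.7 rpm in WT males.

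Among the lists, gH2AX rose in KO males in 20 of 25 ribosomal protein bins (median change 0.14), 19 of 23 mitochondrial ribosomal protein bins (0.13), 8 of 8 tRNA synthetase bins (0.12), 8 of 8 major histocompatibility bins (0.12), 7 of 12 proteasome bins (0.11), 5 of 7 RNA polymerase bins (0.15) and 18 of 28 Zfp bins (0.11). No fall was called in these 7 lists. Of the 6 break response bins 4 rose (0.10), of the 6 histone bins 4 (0.13), of the 4 Hox bins 2 (0.06) and of the 3 sirtuin bins 2 (0.13), and the Bax bin rose by 0.11. Of the 75 bins of the tandem family list, 36 rose and 9 fell (0.07). Beside these stand 412 of all 540 gene-dense bins that rose (76.3%), with a median of 0.13, and nothing particular to a list was tested. In females, 1 bin of these lists fell, that of the tRNA synthetase gene Aars at chr8:111000001-111100000 (-0.14, adjusted p = 0.0229), which the tandem list also holds through Clec18a.

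The 7 bins that fell in KO females were led by chr19:5700001-5800000, which holds Ltbp3, the gene of a binding protein of latent TGF-beta. It had 45.8 and 46.1 gH2AX rpm in KO females, against 51.1 and 51.6 rpm in WT females (-0.16 ± 0.036, adjusted p = 0.00284). Next were chr1:75100001-75200000 with the autophagy gene Atg9a (-0.15), chr8:84000001-84100000 with the transcription factor gene Rfx1 (-0.15) and chr5:145100001-145200000 with Arpc1b, a subunit of the actin-nucleating Arp2/3 complex (-0.14). The count of bins that fell depended on single gH2AX libraries: edgeR called 0 without KO female replicate 2 (74 at an unadjusted p under 0.05), 2 without WT female replicate 1 and 16 without WT female replicate 2. DESeq2 called 13 of 378 bins with an adjusted p.

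The sexes differed in the change. The female minus male difference of the gH2AX change was below 0 in 424 of 540 bins (78.5%), against 20.4% of all bins tested, and above 0 in 14 (2.59%), against 20.1%, with a median of -0.18. Of the 7 bins where gH2AX fell in KO females, 5 rose in KO males, each called by the test. Beside these stand 412 of all 540 gene-dense bins that rose in KO males (76.3%). The share of such opposite calls over all bins was not counted. With the trend on enrichment removed, 2 gene-dense bins were called, both above 0, and the share over all bins is not given for that setting. The count above 0 was 7 without KO female replicate 2 of gH2AX and 9 without WT male replicate 2.

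H2AX and input showed smaller shifts than gH2AX. In females, both KO libraries of each placed a larger share of autosomal reads in gene-dense bins than both WT libraries. The mean differences were 0.0258 points for H2AX and 0.0237 points for input (exact permutation p = 0.333 each, the smallest possible). In males the KO and WT libraries overlapped, with differences of 0.00349 points for H2AX and 0.00579 points for input. By edgeR's quasi-likelihood test, H2AX differed between KO and WT in 1 gene-dense bin in females and the same bin in males, higher in both. This stands against 0.0311% of all bins called higher in females and 0.105% in males. Input differed likewise in that 1 bin in each sex, against 0.0506% of all bins called higher in females and 0.0973% in males. edgeR called 0 gene-dense bins lower in KO for H2AX, against 0.121% of all bins in females and 0.0856% in males, and 0 for input, against 0.132% in females and 0.124% in males. At an unadjusted p under 0.05 these counts were 6 and 18 for H2AX and 7 and 12 for input, in females and males, and DESeq2 also called 0. Without KO male replicate 1 of H2AX, 6 bins were called lower in males. The median H2AX change was 0.01 in females and -0.00 in males. Relative to H2AX, gH2AX was higher in KO males in 330 bins (61.1%), against 15.9% of all bins, and lower in 9, against 14.3%, with a median of 0.13. It was led by chr6:48500001-48600000 with Repin1 (0.30), the protamine bin (0.28), the Psmd8 bin chr7:29100001-29200000 (0.26) and the bin of the inducible heat shock genes Hspa1a and Hspa1b, chr17:34900001-35000000 (0.26). The lowest were the 2 Tas2r bins (-0.25 and -0.24), the Pcdha bin (-0.21) and the trypsin bin chr6:41300001-41400000 (-0.21). The count of 9 lower bins was 5 without KO male replicate 2 of H2AX and 5 without WT male replicate 2 of gH2AX.

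In KO females, gH2AX relative to H2AX was lower in 2 bins, against 0.14% of all bins, with a median of -0.07. They are the bin next to Sirt7 (-0.21) and the Atg9a bin chr1:75100001-75200000 (-0.21). edgeR called 0 higher, against 0.0973% of all bins (5 at an unadjusted p under 0.05, and 0 by DESeq2). The count of lower bins was 0 without KO female replicate 2 or WT female replicate 1 of gH2AX, 5 without KO female replicate 1 and 10 without WT female replicate 2. It was 1 without KO female replicate 2 or WT female replicate 2 of H2AX or WT female replicate 2 of input, and DESeq2 called 12 of 486.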

How the data were processed

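The authors deposited a table of raw read counts for 27268 bins of 100 kb. The submitters' processing notes name Bowtie2 2.2.9 with the build mm10, next to deepTools, SAMtools 0.1.19, MACS2 2.2.7.1, FastQC 0.11.3 and Trimmomatic 0.36, and the handling of reads that map to several places is not given in the sources used here. 24 columns of the table that match no sample of the labels were not used. Gene midpoints came from RefSeq, and 108 genes whose coordinates fell in the first 3 Mb of a chromosome, where the bins hold 0 reads, were left out. The bins, gene lists and rule for named bins were chosen with earlier results of these data known.

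Counts were tested with edgeR 4.0.16 (R 4.3.3; TMM factors on autosomal bins, filterByExpr, quasi-likelihood F test, two-sided, Benjamini-Hochberg adjustment over all bins tested on chromosomes 1 to 19 and X, threshold 0.05), after a check on simulated data. Ratios between antibodies and input used all 24 libraries with a mean for each of 12 groups, and KO was compared with WT within the 8 libraries of an antibody. Values in rpm are counts per 1e6 reads of the scaled library, scaled over all 24 libraries for ratios to input and within the 8 of an antibody for KO against WT. Bins named are the 5 highest and 5 lowest called for each ratio, the 4 highest and 4 lowest called for each KO over WT comparison, up to 8 lowest for both marks, the 3 with the most genes and 2 examples a list. The lowess span of the trend on enrichment was 0.3. DESeq2 1.42.0 and the other settings are given in the closing section. Equal replicate numbers were not treated as pairs in these fits, and the labels do not say whether they mark pairs. Intervals and tests cover these libraries only, and counts of reads without molecular identifiers are not independent molecules. Some named items are not reported here.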

Additional observations from a re-analysis of the deposited data

Results flagged for a closer look

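The gH2AX change of KO against WT differed between females and males in most gene-dense bins by the interaction of genotype and sex (edgeR's quasi-likelihood test, Benjamini-Hochberg adjustment). It was higher in females than in males in 2.59% of gene-dense bins and lower in 78.5%, against 20.1% and 20.4% of all bins tested. The female minus male difference was highest at chr6:132800001-132900000 with bitter taste receptor genes (0.31), chr18:37300001-37400000 with beta protocadherins (0.25), chr6:132700001-132800000 with bitter taste receptor genes (0.24) and chr18:37000001-37100000 with alpha protocadherins (0.23). It was lowest at chr7:141400001-141500000 with the ribosomal protein gene Rplp2 and the RNA polymerase subunit gene Polr2l (-0.34), chr10:81500001-81600000 with Gna11 (-0.34), chr8:123200001-123300000 with Fanca (-0.33) and the predicted genes of chr6:47600001-47700000 (-0.32). The slopes of the gH2AX libraries on enrichment, given with the KO comparison, differed between the same groups, and their part in these values was not tested beyond the removal of the trend.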

How the results depend on the processing

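Each value here is the percent of gene-dense bins called, and the cause of a change was not tested except where the setting itself sets it. Shares over all bins tested are not given for these settings. Those printed in the sections above belong to the tests described there and are not a measure for the settings here. The ratios to input and gH2AX over H2AX moved by less than 1.5 times under every planned setting. With the 75 tandem family bins left out, a choice made after seeing the data, 1.94% were lower for gH2AX and 1.72% for H2AX, 1.08% fell in KO males, 0.645% fell there relative to H2AX, and 0.860% had a higher change in females than in males. With the trend on enrichment removed, gH2AX rose in 0.185% and fell in 0.741% in KO males and fell in 0 in KO females (17 bins at an unadjusted p under 0.05), and the sex difference was higher in 0.370% and lower in 0 (18 bins). That setting reversed the sign in KO males at chr7:28700001-28800000 (-0.0029), chr17:45500001-45600000 (-0.0033), chr17:33900001-34000000 (-0.020), chr7:45400001-45500000 (-0.050) and chr11:120600001-120700000 (-0.030), and in KO females at chr7:28700001-28800000 (0.027) and chr7:45400001-45500000 (0.014). With the change of input subtracted, which adds the error of input, gH2AX rose in 49.3% and fell in 1.30% in KO males, rose in 0 and fell in 0.185% in KO females, and the sex difference was higher in 1.30%. H2AX then rose in 0 in either sex, and at chr11:120500001-120600000 the change was -0.091 for gH2AX in females and -0.039 for H2AX in males. DESeq2 percentages are of the gene-dense bins to which it gave an adjusted p, which in KO females were fewer than 540. It gave 3.44% falling in KO females, 1.48% falling in KO males, 2.47% lower relative to H2AX in KO females and 1.48% for a higher change in females. The replicate block gave 3.70% falling in KO females and moved no other count by over 1.5 times, and replicate numbers did not deviate together (r from -0.04 to 0.06). Single called bins set the small counts under other limits on gene number. With 4 or more genes, 0.289% rose in KO females for gH2AX and input and in KO males for H2AX and input, 0.192% fell in females for H2AX and input, 0.0962% fell in males for H2AX and input, and 0.192% were higher relative to H2AX in KO females. With 6 or more, 0.336% rose for gH2AX in females and for H2AX and input in both sexes, 2.01% fell for gH2AX in females and 0.671% were lower relative to H2AX. By gene starts, 0.340% rose for gH2AX in females and for H2AX and input in males, 0.170% fell in females for H2AX and input, and 0.170% were higher relative to H2AX in KO females. Leaving out 1 library at a time gave 0 to 2.96% falling in KO females, 1.30% to 2.78% falling in KO males, 0 to 1.11% falling in KO males for H2AX, 0 to 1.85% lower relative to H2AX in KO females and 0.926% to 2.04% in KO males, and 1.30% to 2.22% for a higher change in females. Rises in KO males stayed between 58.3% and 78.0%. Of the values of single named bins, 3436 kept their direction and side of the threshold, 82 lost the call, 13 gained it and 9 reversed. The median reads per gene-dense bin were 3034 in the shallowest library, and no GC content of bins was computed.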
